A study of Mus musculus with 288 samples.

Results

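Cytochrome P450 enzymes of families 1 to 3 are the drug, toxin and steroid oxidising enzymes of the hepatocyte, and 37 of the 21869 genes counted in mouse liver were taken as members. A gene was a member if its symbol was Cyp followed by the family digit 1, 2 or 3, a subfamily letter and a gene number, and if it averaged at least 10 counts over all 288 libraries. Of 58 genes with such a symbol, Cyp2b9 and Cyp2b13 were left out by name and 19 averaged fewer counts. The members closest to the limit were Cyp2d11 and Cyp2g1, with 11.3 and 12.9 mean counts, and the genes just outside it were Cyp1b1 and Cyp1a1, with 9.21 and 4.88. This rule compares no groups of mice, but a gene that was low in some groups could reach the limit through groups where it was higher. Cyp2b10 and Cyp2c69, which had few counts in young mice fed ad libitum, are such members. The rule can therefore favour rises over that group. Earlier results of these data were also known when the rule was set.

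Each library was polyA RNA of the liver of 1 wild-type male C57BL/6J mouse, single housed with a running wheel and put on its feeding condition as a young adult. There were 6 feeding conditions. In CR-spread a reduced daily ration was delivered across the whole day, in CR-day-12h and CR-night-12h as small portions through the light or the dark phase, and in CR-day-2h and CR-night-2h as 1 meal at the start of light or dark. AL mice ate ad libitum, and CR stands for caloric restriction. Livers were taken at 19 months (old) and 6 months (young), every 4 h from hour 0 to hour 44, as replicates A and B, which gave 24 livers for each condition and age. The sample labels describe a 12 h light and 12 h dark cycle, whereas the study's methods place the collection in constant darkness, so day and night below mean the scheduled phases.

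These enzymes sit in the membrane of the endoplasmic reticulum, receive electrons from P450 reductase (Por) and insert an oxygen atom into drugs, fatty acids, steroids and bile acids. Many are switched on by ligand-sensing receptors: the aryl hydrocarbon receptor (Ahr) for family 1, and CAR (Nr1i3) and PXR (Nr1i2) for families 2 and 3. In mouse liver many also differ between the sexes, through the sex-specific pattern of growth hormone secretion, and several lie next to the central vein of the liver lobule.

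Library totals lay between 2796688 and 18706281 counts, and the members took between 1.14% and 2.38% of a library. Depth differed between groups, with medians of 9.38e+06 in old AL and 9.42e+06 in young AL, between 7.34e+06 and 8.55e+06 in the old CR groups, and between 4.87e+06 and 6.15e+06 in the young CR groups. In young AL the B libraries were deeper than the A libraries (medians 1.59e+07 and 7.76e+06), and in old AL the order was the other way (7.96e+06 and 1.11e+07). No libraries were identical. The libraries least like the rest of their group, with a correlation of log values below 0.94, were hour 28 B of old CR-night-2h, hour 0 B of old CR-day-12h and hour 20 A of young CR-day-2h. Hepatocyte markers were expressed throughout, and no marker of another liver cell type was at 0 in all libraries.

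Cyp2e1, which oxidises ethanol and other small molecules, was the most abundant member per length in all groups. In RPKM, reads scaled by gene length and library size, it had a median of 2306 in old AL livers and 2574 in young AL livers, 45.9% and 42.2% of the members' summed medians. In old AL it was followed by Cyp3a11 (352 RPKM), the main mouse relative of human CYP3A4, by Cyp2d26 (300 RPKM) and by Cyp2f2 (237 RPKM), known for naphthalene bioactivation. In young AL it was followed by Cyp2f2 (413 RPKM), Cyp2d26 (347 RPKM), the steroid hydroxylase Cyp2d9 (333 RPKM) and the arachidonic acid epoxygenase Cyp2c29 (237 RPKM). Median levels of at least 100 RPKM were reached by 10 members in old AL and 15 in young AL. The lowest member, Cyp2d11, had 0.0639 RPKM in old AL. RPKM values are used only for this order within a group. Levels and differences below are in CPM, counts scaled to the library size with edgeR's TMM method, which are not corrected for length.

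Several members are close copies of each other, and reads that fit more than 1 copy can be lost or shared. Of the 50-base windows of the annotated transcripts, Cyp2c40 shared 60.3% with other genes, Cyp2c69 54.3%, Cyp2c67 52.8%, Cyp2c68 43.3%, Cyp2a4 38.0% and Cyp2a5 37.0%. In all, 15 members shared more than 20% and 14 members less than 5%, and Cyp2c44, Cyp2c70, Cyp2f2, Cyp2j9, Cyp2r1 and Cyp3a13 shared none. Levels of the first group of genes are therefore less certain than those of the last. A position with the same gene identifier as in the count tables was found for 30 members on GRCm38 (GENCODE M21). Of these, 11 Cyp2c genes were on chromosome 19, 9 members of subfamilies Cyp2a, Cyp2b, Cyp2e, Cyp2f, Cyp2g and Cyp2r on chromosome 7, 4 Cyp3a genes on chromosome 5, 3 Cyp2j genes on chromosome 4, and Cyp2u1, Cyp1a2 and Cyp2d11 on chromosomes 3, 9 and 15.

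Promoter sequences, from 250 bases before to 50 bases after the start of the gene, were taken from RefSeq for 32 members (GRCm38.p6). The first 3 promoters are shown because they hold a D box, the element bound by the clock output factors Dbp, Tef, Hlf and Nfil3, and because the levels of these genes over the day are described below. Capitals mark the D box, searched as TTATGNAA on both strands. Cyp2a4 lies at chr7:26306942-26307241, Cyp2a5, the coumarin 7-hydroxylase, at chr7:26835089-26835388 and Cyp2b10, the classical target of CAR, at chr7:25897408-25897707, all on the plus strand.
Cyp2a4: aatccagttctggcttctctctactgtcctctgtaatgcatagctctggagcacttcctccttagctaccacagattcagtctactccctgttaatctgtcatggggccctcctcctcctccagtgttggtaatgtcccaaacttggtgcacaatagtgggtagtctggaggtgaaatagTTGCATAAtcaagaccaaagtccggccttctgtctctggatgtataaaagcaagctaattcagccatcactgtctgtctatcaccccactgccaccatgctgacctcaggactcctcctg
Cyp2a5: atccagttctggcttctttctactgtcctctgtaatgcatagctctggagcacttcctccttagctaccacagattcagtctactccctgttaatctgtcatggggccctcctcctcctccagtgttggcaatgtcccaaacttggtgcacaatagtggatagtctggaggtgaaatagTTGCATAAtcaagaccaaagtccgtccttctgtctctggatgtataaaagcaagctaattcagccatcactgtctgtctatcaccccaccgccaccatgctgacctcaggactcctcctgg
Cyp2b10: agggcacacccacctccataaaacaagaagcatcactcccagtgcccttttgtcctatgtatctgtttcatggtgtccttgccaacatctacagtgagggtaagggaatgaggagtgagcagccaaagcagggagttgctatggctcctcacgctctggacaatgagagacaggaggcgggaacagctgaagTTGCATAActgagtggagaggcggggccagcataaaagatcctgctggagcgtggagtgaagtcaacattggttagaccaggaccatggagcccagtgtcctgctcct
The promoters of Cyp2a4 and Cyp2a5 were 98.3% identical over 299 bases. The D box lay 63 to 70 bases before the start of the annotated gene in Cyp2a4, 64 to 71 bases before it in Cyp2a5 and 51 to 58 bases before it in Cyp2b10. Such a match was present in 3 of 32 member promoters and in 3.38% of all 32851 promoters. A match is a description of letters and not a binding site.

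A further 4 promoters are shown as pairs of near copies whose genes differed in their response to age or feeding. Capitals mark the bases that differ within the pair once it is aligned. Cyp2a22 lies at chr7:26939337-26939636 on the minus strand and Cyp2a12, a steroid and bile acid hydroxylase, at chr7:27028840-27029139 on the plus strand. Cyp3a59 lies at chr5:146079008-146079307 on the plus strand and Cyp3a25 at chr5:146009569-146009868 on the minus strand.
Cyp2a22: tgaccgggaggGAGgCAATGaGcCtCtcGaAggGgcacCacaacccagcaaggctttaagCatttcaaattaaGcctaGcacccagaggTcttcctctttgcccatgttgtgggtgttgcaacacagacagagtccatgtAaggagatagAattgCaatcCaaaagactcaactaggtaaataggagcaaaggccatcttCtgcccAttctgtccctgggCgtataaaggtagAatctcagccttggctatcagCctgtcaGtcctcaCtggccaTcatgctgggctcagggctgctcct
Cyp2a12: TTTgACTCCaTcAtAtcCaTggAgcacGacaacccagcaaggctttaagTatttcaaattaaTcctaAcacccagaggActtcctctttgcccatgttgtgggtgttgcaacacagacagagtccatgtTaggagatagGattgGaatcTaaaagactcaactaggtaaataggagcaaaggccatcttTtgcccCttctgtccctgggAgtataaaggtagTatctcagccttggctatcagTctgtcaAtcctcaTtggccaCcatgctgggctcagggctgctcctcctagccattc
Cyp3a59: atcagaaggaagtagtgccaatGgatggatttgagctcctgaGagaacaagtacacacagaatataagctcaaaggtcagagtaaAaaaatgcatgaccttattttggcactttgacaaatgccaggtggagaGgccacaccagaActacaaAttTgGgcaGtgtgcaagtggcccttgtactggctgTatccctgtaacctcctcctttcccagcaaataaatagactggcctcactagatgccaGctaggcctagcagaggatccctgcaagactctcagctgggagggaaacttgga
Cyp3a25: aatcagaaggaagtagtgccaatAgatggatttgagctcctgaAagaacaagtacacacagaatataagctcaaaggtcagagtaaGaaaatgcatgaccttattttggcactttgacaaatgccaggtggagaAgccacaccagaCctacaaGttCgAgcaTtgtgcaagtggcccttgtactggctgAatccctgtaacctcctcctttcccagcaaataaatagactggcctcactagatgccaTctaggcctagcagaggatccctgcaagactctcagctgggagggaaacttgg
Identity was 89.3% over 289 bases for Cyp2a22 and Cyp2a12, and 96.3% over 299 bases for Cyp3a59 and Cyp3a25. Of the other motifs searched on both strands, the STAT5 site TTCNNNGAA was in 0 of 32 member promoters (8.3% of all promoters), the HNF6 site ATTGAT in 7 (7.54%), the HNF1 partial site GTTAAT in 6 (7.1%), the HNF4A partial site CAAAG in 30 (53.9%), the E-box CACGTG in 1 (7.15%) and the aryl hydrocarbon receptor core GCGTG in 4 (32.4%). The 6 promoters with GTTAAT were those of Cyp2a4, Cyp2a5, Cyp2c40, Cyp2c68, Cyp2c69 and Cyp2d26.

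With age under AL feeding, Cyp2a4, Cyp2a22, Cyp2c38, Cyp2c39, Cyp3a11 and Cyp3a59 were higher, and Cyp2d9, Cyp2u1, Cyp2f2, Cyp1a2 and Cyp2c54 were lower. A member was called changed when edgeR's quasi-likelihood F test gave a Benjamini-Hochberg adjusted p under 0.05 over all 12228 tested genes and the fold was at least 1.5. Between old and young AL livers 7 members rose, against 10.8% of all tested genes, and 12 fell, against 4.47%. As stated above, the member rule can favour rises over young AL. The heat map of fold changes shows all members.

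**Figure D1:**
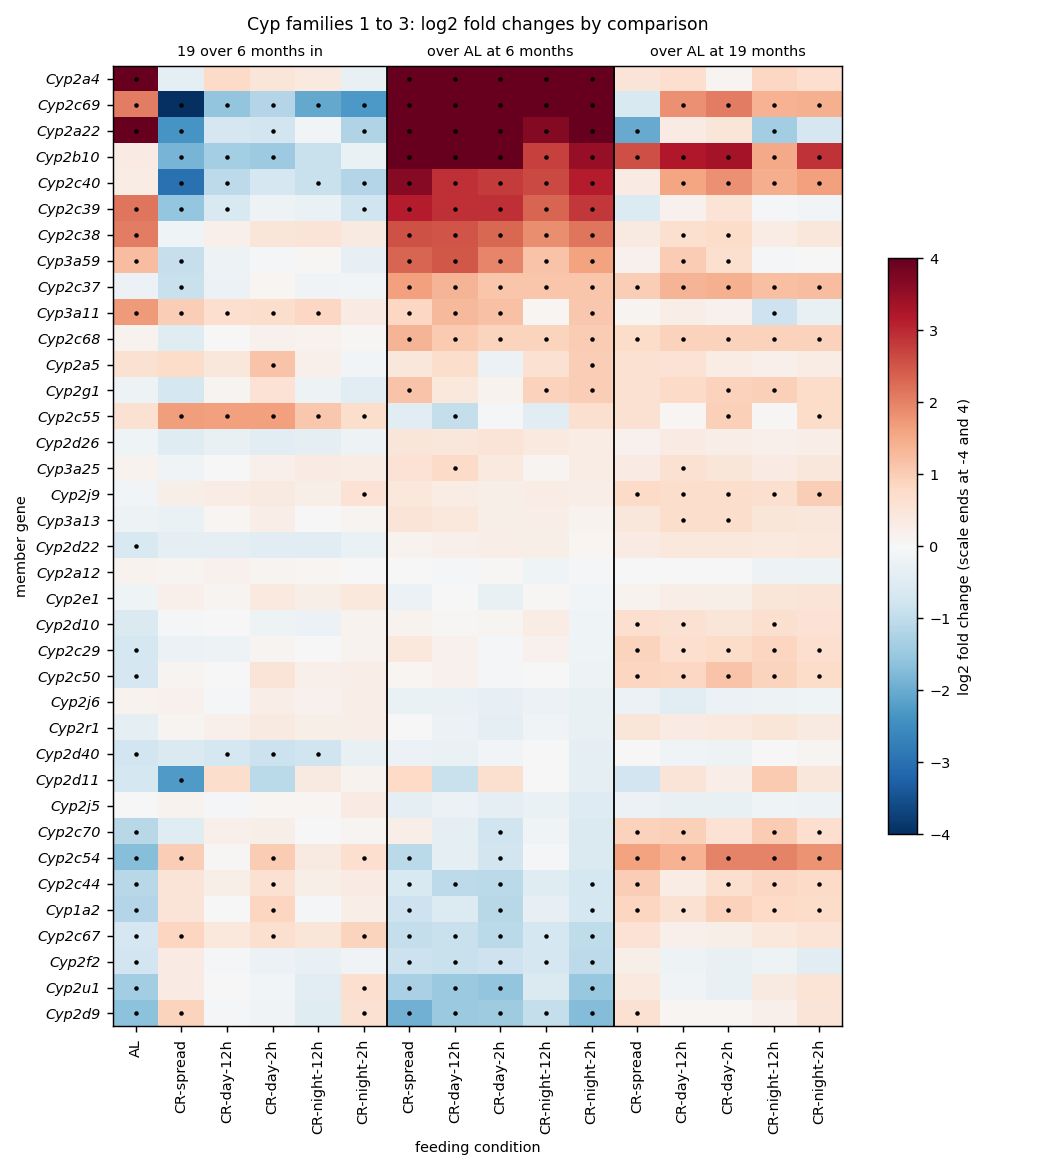
Log2 fold change of the 37 members (rows) in 16 comparisons (columns): 19 over 6 months in each feeding condition, each CR condition over AL at 6 months, and each CR condition over AL at 19 months. Red is higher and blue lower, colours end at -4 and 4, and a black dot marks a called change (edgeR adjusted p under 0.05 and fold of at least 1.5). Cyp2a22 and Cyp2a4 stand out as red both in old over young AL and in all 5 CR conditions over AL at 6 months.

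Cyp2a22 ranged from 5.68 to 72.3 CPM in old AL livers (median 35.01), against 0 to 3.74 CPM in young AL livers (median 0.725). Every old AL liver was above every young one. The log2 fold change was 4.95 ± 0.44 (SE, n = 24 livers at each age, edgeR adjusted p = 1.95e-22), with means of 33.3 ± 19.1 CPM in old and 1.14 ± 1.03 CPM in young AL livers (SD). Here and below, the value after ± is an SD for a mean in CPM and an SE for a log2 fold change, over 24 livers in each group. Its near copy Cyp2a12 had 465 ± 84.3 CPM in old and 424 ± 65.0 CPM in young AL livers (log2 fold change 0.13, edgeR adjusted p = 0.186).

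Cyp2a4, the testosterone 15-alpha-hydroxylase of female mouse liver, ranged from 1.33 to 851 CPM in old AL livers (median 159), against 0.156 to 25.4 CPM in young AL livers (median 4.05). The ranges overlapped, and the log2 fold change was 4.81 ± 0.61 (SE, edgeR adjusted p = 1.78e-12). Cyp2a5, which shares 98.3% of the promoter shown above, had 522 ± 474 CPM in old and 345 ± 277 CPM in young AL livers (SD, n = 24 each) and was not called (log2 fold change 0.60, edgeR adjusted p = 0.0936).

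Cyp2c38 ranged from 96.3 to 211 CPM in old AL livers (median 154), against 10.7 to 77.4 CPM in young AL livers (median 31.2). The groups did not overlap, and the log2 fold change was 2.05 ± 0.17 (SE, edgeR adjusted p = 5.6e-25). Cyp2c39, a retinoic acid hydroxylase, had 6.45 ± 2.25 CPM in old and 1.48 ± 0.876 CPM in young AL livers (log2 fold change 2.15 ± 0.23, edgeR adjusted p = 2.48e-16). Cyp3a11 ranged from 720 to 3914 CPM in old AL livers (median 2124), against 214 to 1133 CPM in young AL livers (median 574), with a log2 fold change of 1.71 ± 0.20 (edgeR adjusted p = 2.69e-14). Cyp3a59 rose by 1.23 ± 0.21, whereas the promoter copy Cyp3a25 had 355 and 325 CPM in old and young AL livers (log2 fold change 0.13, edgeR adjusted p = 0.417). Cyp2c69 was called with a log2 fold change of 2.04 ± 0.67 (edgeR adjusted p = 0.00698), but the replicates differed in sign: it was -0.87 in the A libraries alone (edgeR adjusted p = 0.534) and 4.23 in the B libraries alone (edgeR adjusted p = 8.91e-05).

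**Figure D2:**
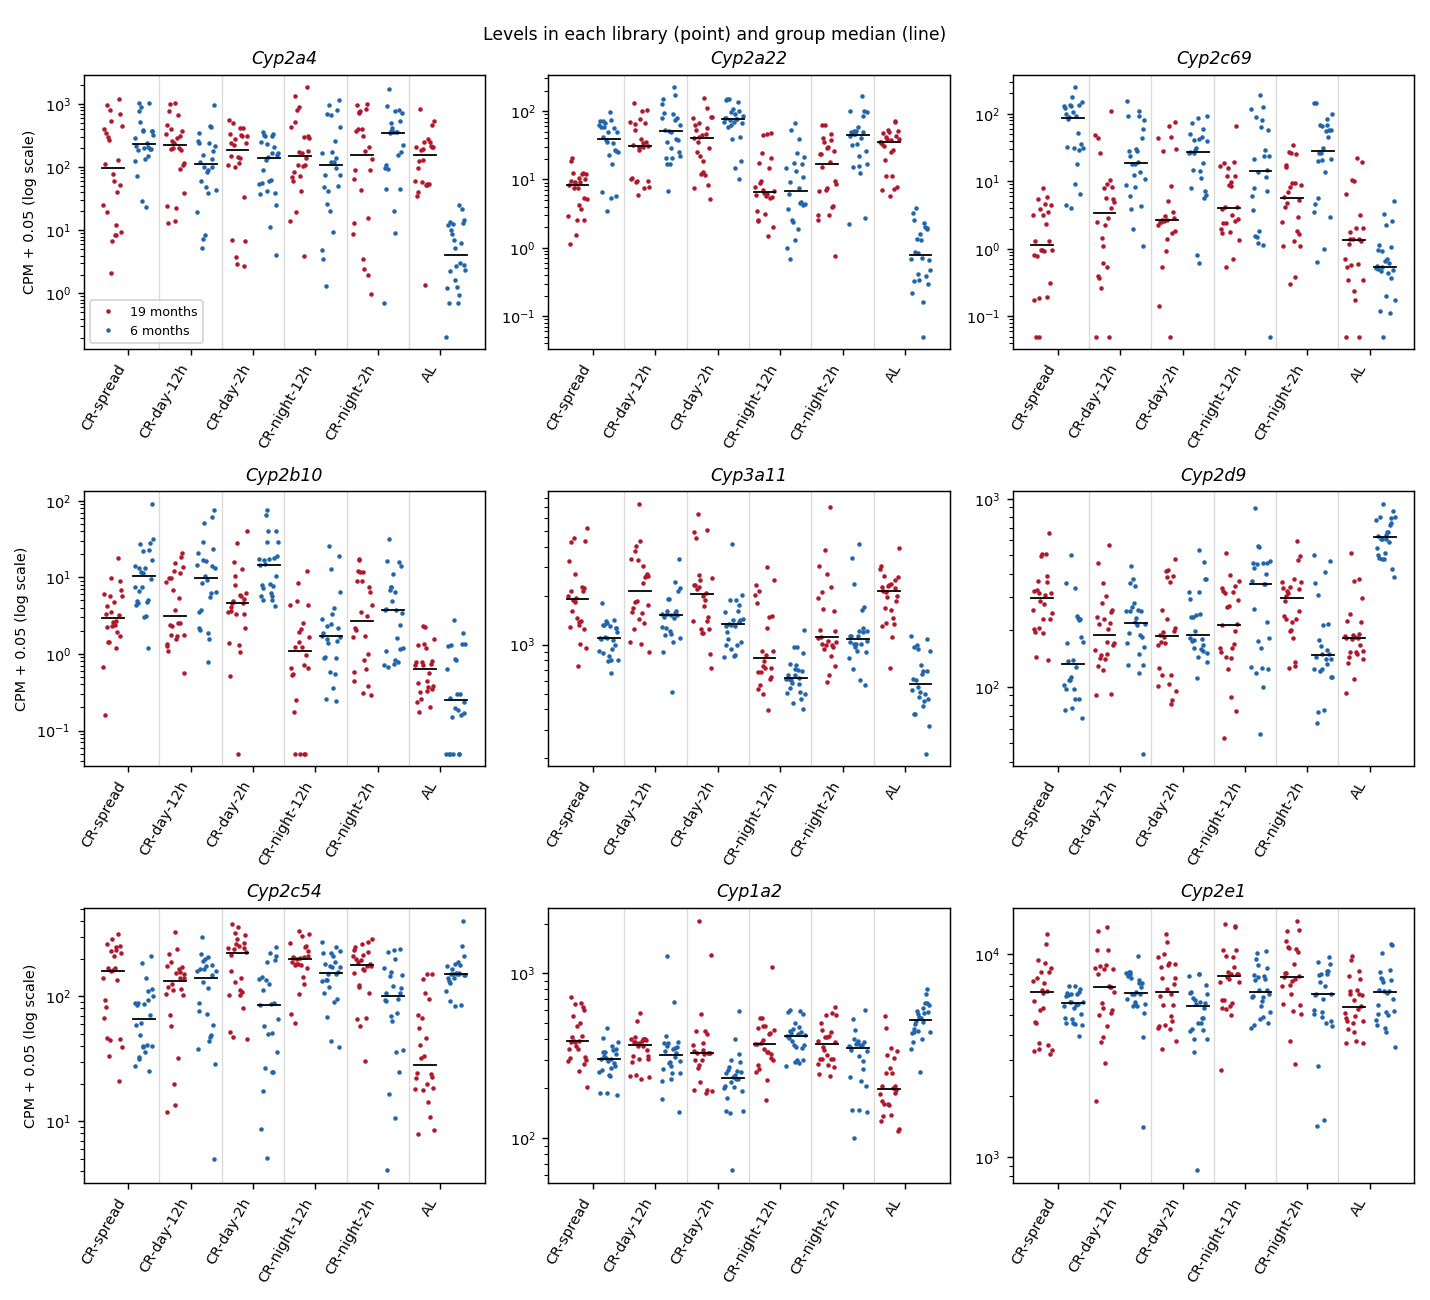
Level of 9 members in each of the 288 livers, in CPM plus 0.05 on a log axis, by feeding condition, with 19 months (red) to the left of 6 months (blue) and a line at each group's median. Cyp2a22 in old AL (5.68 to 72.3 CPM) lies above all young AL livers (0 to 3.74 CPM), while the group medians of Cyp2e1 lie between 5458 and 7821 CPM.

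Among the members that fell, Cyp2d9, the testosterone 16-alpha-hydroxylase of male mouse liver, ranged from 92.4 to 516 CPM in old AL livers (median 183), against 382 to 939 CPM in young AL livers (median 622). The log2 fold change was -1.63 ± 0.20 (SE, edgeR adjusted p = 1.06e-12), and the ranges overlapped. Cyp2u1, a fatty acid hydroxylase, had 27.2 ± 16.3 CPM in old and 71.4 ± 31.1 CPM in young AL livers (log2 fold change -1.39 ± 0.23, edgeR adjusted p = 8.54e-08). Cyp2f2 ranged from 302 to 1055 CPM in old (median 562) and from 790 to 1165 CPM in young AL livers (median 988), with a log2 fold change of -0.77 ± 0.13 (edgeR adjusted p = 4.92e-08). These 3 are the members listed as higher in male mouse liver, and all 3 fell, with a median log2 fold change of -1.39 against -0.01 over all tested genes. Of 8 tested genes listed as higher in female mouse liver 5 rose and 0 fell, with a median of 1.80. These lists and the other gene lists below were made with earlier results of these data known, so their directions are not independent evidence.

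Cyp1a2, the caffeine-oxidising target of Ahr, ranged from 110 to 555 CPM in old AL livers (median 199), against 252 to 800 CPM in young AL livers (median 524). The log2 fold change was -1.19 ± 0.16 (SE, edgeR adjusted p = 3.16e-11). Cyp2c54 ranged from 7.79 to 151 CPM in old AL livers (median 27.99), against 84.2 to 402 CPM in young AL livers (median 152), with a log2 fold change of -1.70 ± 0.28 (edgeR adjusted p = 6.15e-08). Cyp2c70, which makes muricholic bile acids in mice, had 246 ± 95.2 CPM in old and 535 ± 165 CPM in young AL livers (-1.12 ± 0.12, edgeR adjusted p = 1.35e-15). Cyp2c44, an epoxygenase of arachidonic acid, had 223 ± 130 CPM in old and 482 ± 97.6 CPM in young AL livers (-1.11 ± 0.12, edgeR adjusted p = 2.21e-16). The remaining 5 members that fell, Cyp2d40, Cyp2c29, Cyp2c50, Cyp2c67 and Cyp2d22, had log2 fold changes of -0.77 to -0.60. Cyp2c29 ranged from 307 to 1084 CPM in old and from 412 to 1551 CPM in young AL livers (medians 498 and 838).

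Of the 19 calls with age in AL, 14 were made in the A libraries alone and in the B libraries alone. Besides Cyp2c69, the call was lost in 1 replicate for Cyp2c29 (-0.57 in B), Cyp2c50 (-0.33 in B), Cyp2c67 (-0.29 in B) and Cyp2d22 (-0.46 in A). Cyp2e1 ranged from 3645 to 9737 CPM in old and from 3493 to 11210 CPM in young AL livers and was not called (-0.18, edgeR adjusted p = 0.319). Cyp2b10 was near the detection limit at both ages, with 0.125 to 2.26 CPM in old AL livers (median 0.595), against 0 to 2.69 CPM in young AL livers (median 0.201), of which 6 had no count (log2 fold change 0.34, edgeR adjusted p = 0.674).

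In the livers that gave these differences, the summed markers of other cells moved too. The 8 Kupffer cell and macrophage markers summed to 133 to 775 CPM in old AL livers (median 295), against 72.1 to 251 CPM in young AL livers (median 169), and 6 of 8 rose. Of 8 stellate cell markers 4 rose (331 to 703 CPM in old, 249 to 356 CPM in young). Of 8 hepatocyte markers 3 fell (55900 to 130000 CPM in old, 75000 to 114000 CPM in young). T and NK cell markers (3 of 3 tested), B and plasma cell markers (4 of 4) and cholangiocyte markers (2 of 5) also rose. Of 6 sinusoidal endothelial markers 0 were called. Their part in the members' differences was not tested, and in whole tissue fewer cells of a type cannot be told apart from less RNA per cell.

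Under CR at 6 months 7 of 8 tested genes listed as higher in female mouse liver rose in all 5 feeding schedules, and Cyp2g1 rose in 3 (1.10-fold to 2.19-fold over all 5). Up and down calls, with the share of all tested genes in the same direction in brackets, were 12 (3.57%) and 7 (3.9%) in CR-spread, 12 (2.6%) and 6 (3.93%) in CR-day-12h, 11 (4.37%) and 8 (3.79%) in CR-day-2h, 11 (3.16%) and 3 (3.47%) in CR-night-12h, and 13 (4.84%) and 6 (2.37%) in CR-night-2h. These 5 comparisons and the one of old with young AL share the young AL libraries and are not independent. In all 5 schedules 10 members rose, namely Cyp2a4, Cyp2a22, Cyp2b10, Cyp2c37, Cyp2c38, Cyp2c39, Cyp2c40, Cyp2c68, Cyp2c69 and Cyp3a59. Genes low in young AL, such as Cyp2b10 and Cyp2c69, could become members through the groups where they were higher. The member rule can therefore raise these up counts, which limits their comparison with the shares of all tested genes. In all 5, Cyp2c67, Cyp2d9 and Cyp2f2 fell, and 14 members were called in none. Here and below, the share of all genes called in all 5 schedules or in none is not given.

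Cyp2a4 had medians of 232 CPM in CR-spread, 112 in CR-day-12h, 141 in CR-day-2h, 108 in CR-night-12h and 354 in CR-night-2h, against 4.05 CPM in AL. Single young CR livers lay between 0.667 and 1721 CPM, and all 5 CR ranges overlapped that of AL (0.156 to 25.4 CPM). The fold over AL was between 21.8 (CR-day-2h) and 55.4 (CR-night-2h), and all 5 edgeR adjusted p were 6.84e-11 or smaller. Cyp2a22 had medians of 39.6 CPM in CR-spread, 50.6 in CR-day-12h, 77.3 in CR-day-2h, 6.74 in CR-night-12h and 44.6 in CR-night-2h, against 0.725 CPM in AL, and folds of 12.8 (CR-night-12h) to 73.5 (CR-day-2h). In CR-day-12h and CR-day-2h all Cyp2a22 levels (from 6.75 CPM upward) were above all AL levels (up to 3.74 CPM).

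Cyp2c69 was between 38.1-fold (CR-day-2h) and 99.0-fold (CR-spread) higher than in AL. Its levels were 3.92 to 249 CPM in CR-spread (median 87.5), against 0 to 5.10 CPM in AL (median 0.497), and the ranges overlapped. Of its transcript windows 54.3% are shared with other genes. Cyp2c40, an arachidonic acid hydroxylase with a similar share, rose between 6.22-fold (CR-night-12h) and 12.4-fold (CR-spread). Cyp2c38 rose between 3.60-fold (CR-night-12h) and 5.90-fold (CR-spread), Cyp2c39 between 5.04-fold and 8.78-fold, and Cyp3a59 between 2.21-fold and 5.55-fold. Of 8 tested genes listed as higher in female mouse liver, all 8 rose in CR-spread and both night schedules and 7 in both day schedules, with list medians of 2.49 to 3.10 on the log2 scale and all-gene medians within 0.02 of 0. Earlier results of these data were known when this list was made, so its direction is not independent evidence.

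Cyp2b10 rose in all 5 schedules and had higher medians with food in the light phase than in the dark phase. The medians were 10.4 CPM in CR-spread, 9.68 in CR-day-12h, 14.6 in CR-day-2h, 1.65 in CR-night-12h and 3.71 in CR-night-2h, against 0.201 CPM in AL. The log2 fold changes over AL, in the same order, were 4.77 ± 0.50, 4.90 ± 0.50, 5.14 ± 0.50, 2.75 ± 0.54 and 3.49 ± 0.51 (SE, edgeR adjusted p = 9.72e-06 or smaller). All CR-day-2h livers (4.23 to 76.6 CPM) were above all AL livers (0 to 2.69 CPM), while the other 4 schedules overlapped AL. In CR-night-12h the call was lost in the A libraries alone (1.81, edgeR adjusted p = 0.149). Nr1i3, the receptor CAR, was called higher than in AL only in CR-day-2h at 6 months (log2 fold change 0.71), and Nr1i2 and Ahr were called in no CR comparison at either age.

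Cyp3a11, the other receptor target of note, had medians of 1101 CPM in CR-spread, 1528 in CR-day-12h, 1329 in CR-day-2h, 621 in CR-night-12h and 1085 in CR-night-2h, against 574 CPM in AL. It rose in 4 schedules, with log2 fold changes of 0.81 to 1.30, and not in CR-night-12h (0.07). Of 10 CAR and PXR target members, 3 rose in CR-spread (list median 0.49), 4 in CR-day-12h (0.55), 3 in CR-day-2h (0.09), 2 in CR-night-12h (0.14) and 4 in CR-night-2h (0.47), and at most 1 fell.

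Among the members that fell under young CR, Cyp2d9 had medians of 132 CPM in CR-spread, 218 in CR-day-12h, 189 in CR-day-2h, 352 in CR-night-12h and 147 in CR-night-2h, against 622 CPM in AL, and folds of 1.95 (CR-night-12h) to 3.75 (CR-spread) below AL. Its CR ranges (44.1 to 889 CPM over all schedules) overlapped the AL range (382 to 939 CPM). Cyp2f2 had medians of 449 to 630 CPM in the CR groups, against 988 CPM in AL, and its ranges in CR-spread (up to 754 CPM), CR-day-12h (up to 779 CPM) and CR-night-2h (up to 785 CPM) stayed below the lowest AL liver (790 CPM). Cyp2u1 fell in 4 schedules (-1.31 to -1.57) and Cyp2c67 in 5 (-0.71 to -1.08). In CR-night-12h the calls of Cyp2d9 and Cyp2f2 were lost in the A libraries alone (-0.71 and -0.55), and 10 of the 14 calls there were made in both replicates, against 16 or 17 of 18 or 19 calls in the other schedules.

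Cyp1a2, Cyp2c44, Cyp2c54 and Cyp2c70 fell in some young CR groups only. Cyp1a2 fell in CR-spread (-0.82), CR-day-2h (-1.12) and CR-night-2h (-0.71), with medians of 302, 231 and 351 CPM, against 524 CPM in AL. Cyp2c44 fell in 4 schedules (-0.62 to -1.06) and Cyp2c70 in CR-day-2h (-0.79). Cyp2a5 rose only in CR-night-2h (log2 fold change 1.00, edgeR adjusted p = 0.00769), a call that was lost in either replicate alone (edgeR adjusted p = 0.161 in A and 0.0709 in B). Cyp2e1 and Cyp2c29 were called in none.

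**Figure D3:**
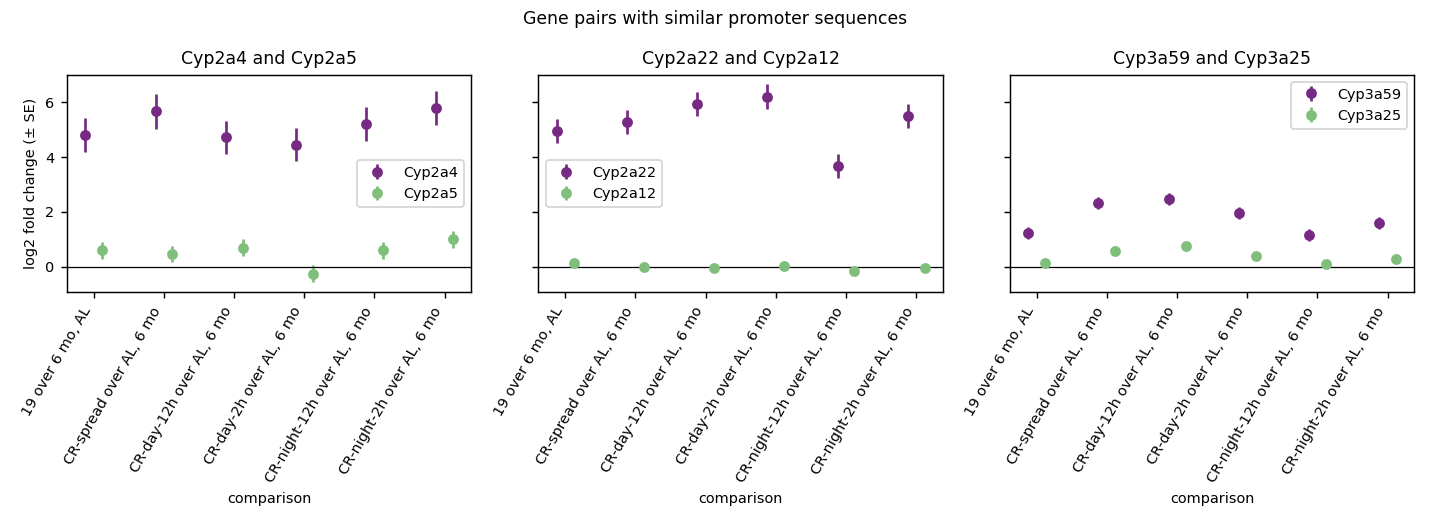
Log2 fold change with its SE (edgeR) for 3 pairs of genes with similar promoter sequences, Cyp2a4 with Cyp2a5, Cyp2a22 with Cyp2a12 and Cyp3a59 with Cyp3a25, in old over young AL and in the 5 CR conditions over AL at 6 months. In each panel the first gene lies above its copy in all 6 comparisons, for example Cyp2a22 at 4.95 and Cyp2a12 at 0.13 with age in AL.

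Outside the family, Por was higher in all 5 young CR groups than in young AL (log2 fold changes 0.64 to 0.82, means 439 to 495 CPM, against 281 CPM). Among 10 regulators of sex-biased liver genes, Cux2, a factor of female liver, rose in all 5 (5.06 to 5.98) with 40.4 CPM in CR-spread, against 0.689 CPM in AL. Bcl6, a male-biased repressor, fell in all 5 (-1.65 to -2.66). With age in AL, Bcl6 fell too (24.6 CPM in old and 72.4 CPM in young, -1.56), as did Onecut1 (-1.06) and Socs2 (-0.90), whereas Cux2 had 0.627 and 0.689 CPM and was not called. Of 45 tested conjugating enzymes 8 to 12 rose and 8 to 11 fell under young CR, and of 18 tested receptors and electron donors 1 or 2 rose and at most 1 fell. Hepatocyte markers were called in 0 of 5 young CR comparisons. Of 8 Kupffer cell and macrophage markers 0 to 6 fell (most in CR-day-12h), of 4 B and plasma cell markers 0 to 3 fell, and of 6 sinusoidal endothelial markers 1 or 2 rose (group medians of the sum 229 to 254 CPM in young CR livers, against 189 CPM in young AL livers). Their part in the members' differences was not tested.

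In old livers Cyp2b10, Cyp1a2, Cyp2j9 and several Cyp2c genes were higher under CR than under AL, and few members were lower. Up and down calls were 12 (2.18% of all genes) and 1 (7.82%) in CR-spread, 16 (2.62%) and 0 (6.92%) in CR-day-12h, 16 (3.1%) and 0 (5.77%) in CR-day-2h, 14 (3.57%) and 2 (8.91%) in CR-night-12h, and 13 (3.51%) and 0 (8.04%) in CR-night-2h. These comparisons share the old AL libraries with each other and with the comparison by age in AL. In all 5 schedules Cyp1a2, Cyp2b10, Cyp2c29, Cyp2c37, Cyp2c50, Cyp2c54, Cyp2c68 and Cyp2j9 rose, and 15 members were called in none.

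Cyp2b10 had medians of 2.90 CPM in CR-spread, 3.11 in CR-day-12h, 4.59 in CR-day-2h, 1.05 in CR-night-12h and 2.60 in CR-night-2h, against 0.595 CPM in AL. The log2 fold changes, in the same order, were 2.56 ± 0.50, 3.20 ± 0.49, 3.34 ± 0.49, 1.52 ± 0.54 and 2.88 ± 0.49 (SE), and the edgeR adjusted p were between 4.56e-09 (CR-day-2h) and 0.0158 (CR-night-12h). All 5 ranges overlapped that of AL (0.125 to 2.26 CPM), and 4 livers of CR-night-12h had no count. In the B libraries alone the CR-night-12h difference was not called (1.19, edgeR adjusted p = 0.289). Nr1i3 was higher than in old AL in the 4 timed schedules (0.60 to 0.88) and not called in CR-spread (0.41), with CR means of 222 to 307 CPM, against 167 CPM in AL.

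Cyp2c54, a Cyp2c enzyme of arachidonic acid, had medians of 160 CPM in CR-spread, 133 in CR-day-12h, 221 in CR-day-2h, 199 in CR-night-12h and 179 in CR-night-2h, against 27.99 CPM in AL. It rose between 2.61-fold and 3.98-fold, its ranges overlapped AL (7.79 to 151 CPM), and the call was lost in the B libraries alone in CR-spread (0.94) and CR-day-12h (0.75). Cyp1a2 had medians of 330 to 387 CPM in the CR groups, against 199 CPM in AL (log2 fold changes 0.62 to 0.91). Its call was lost in the B libraries alone in CR-day-12h (0.52) and CR-day-2h (0.31). Cyp2c29 had medians of 878 to 1068 CPM, against 498 CPM in AL (0.68 to 0.89), and was lost in the B libraries alone in CR-day-12h (0.32), CR-day-2h (0.54) and CR-night-2h (0.42). Cyp2c50 rose by 0.73 to 1.13, Cyp2c37 by 0.99 to 1.42, Cyp2c68 by 0.73 to 0.93 and Cyp2j9 by 0.63 to 0.97 on the log2 scale. In the B libraries alone Cyp2j9 was called only in CR-night-2h (0.91), with values of 0.49 to 0.67 in the other 4 schedules, and Cyp2c37, Cyp2c50 and Cyp2c68 were each lost in 2 or 3 schedules.

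Cyp2a4 was called in no old CR group (log2 fold changes 0.12 to 0.82), with medians of 96.0 CPM in CR-spread, 226 in CR-day-12h, 187 in CR-day-2h, 154 in CR-night-12h and 158 in CR-night-2h, against 159 CPM in old AL. Cyp2a22 was lower than in old AL in CR-spread (-2.02, edgeR adjusted p = 9.64e-07) and CR-night-12h (-1.39, and -1.13 in the A libraries alone, not called). Cyp2c69 was called higher in 4 schedules (1.41 to 2.04), with opposite or small values in the B libraries alone (-1.28 in CR-day-12h, 0.73 in CR-day-2h, 0.29 in CR-night-12h and 0.73 in CR-night-2h) and 3.17 to 4.65 in the A libraries alone. Cyp2c40 was also called in these 4 (1.45 to 1.83), and in the B libraries alone it was called in none (-0.58 in CR-day-12h, 0.94 in CR-day-2h, 0.44 in CR-night-12h and 1.06 in CR-night-2h). Calls made in each replicate alone were 8 of 13 in CR-spread, 2 of 16 in CR-day-12h, 6 of 16 in CR-day-2h, 7 of 16 in CR-night-12h and 6 of 13 in CR-night-2h.

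Cell markers differed in these comparisons as well. Summed hepatocyte markers had group medians of 116000 to 137000 CPM in old CR livers, against 85600 CPM in old AL livers, and 2 to 4 of 8 markers rose. Kupffer cell and macrophage markers had medians of 113 to 171 CPM in old CR livers, against 295 CPM in old AL, and 7 of 8 fell in each comparison. The part of these shifts in the members' differences was not tested. Of the 8 tested female-biased genes, 1 rose in CR-spread (list median 0.35), 4 in CR-day-12h (0.71), 5 in CR-day-2h (0.83), 5 in CR-night-12h (0.99) and 3 in CR-night-2h (0.74). Of the 10 CAR and PXR targets, 5 rose in CR-spread (0.73), 7 in CR-day-12h (0.69), 7 in CR-day-2h (0.85), 5 in CR-night-12h (0.67) and 6 in CR-night-2h (0.70), with all-gene medians of at most 0.03.

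Within each CR schedule fewer members were called with age than the 19 of AL, which depended in part on the fold limit. Without the fold limit the counts were 22 in CR-spread and 20 in CR-day-2h, against 21 in AL. That rule also called 4043 of all 12228 tested genes in CR-spread and 5755 in CR-day-2h. The count of all genes in AL under that rule is not given here. The near-equal member counts therefore do not show that AL and these schedules were alike. Up and down calls in old over young livers were 5 (5.53%) and 8 (2.98%) in CR-spread, 2 (5.22%) and 5 (1.46%) in CR-day-12h, 7 (5.71%) and 4 (3.52%) in CR-day-2h, 2 (4.54%) and 3 (3.18%) in CR-night-12h, and 6 (2.09%) and 4 (2.4%) in CR-night-2h. Cyp2c55, a Cyp2c enzyme of arachidonic and linoleic acid, rose in all 5, Cyp2c69 fell in all 5, Cyp3a11 rose in 4, and 18 members were called in none. Of the 8 tested genes of the female-biased list, 5 fell in CR-spread, 3 in CR-day-12h, 1 in CR-day-2h, 2 in CR-night-12h and 4 in CR-night-2h, and 0 rose. Cell markers moved with age here too: the summed sinusoidal endothelial markers had group medians of 156 to 173 CPM in old CR livers, against 229 to 254 CPM in young CR livers, and 2 to 5 of 6 fell. B and plasma cell markers had medians of 4.57 to 5.72 CPM in old and 1.69 to 1.98 CPM in young CR livers, and 2 to 4 of 4 rose. Of 8 Kupffer cell and macrophage markers 0 to 6 rose, and of 8 hepatocyte markers 0 were called. Their part in the members' differences was not tested.

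Cyp2c55 had medians of 5.73 CPM in old and 2.01 CPM in young CR-spread, 3.12 and 1.19 in CR-day-12h, 4.65 and 1.85 in CR-day-2h, 4.13 and 1.89 in CR-night-12h, and 4.09 and 2.23 in CR-night-2h, with folds of 1.64 to 3.20. Its highest livers were old ones, at 56.4 CPM in CR-day-2h and 63.6 CPM in CR-night-2h. The CR-night-2h call (0.72, edgeR adjusted p = 0.0471) rested on few libraries: it was -0.28 in the A libraries alone, and 0.13 (edgeR adjusted p = 0.755) without the libraries of low similarity. The CR-day-2h call was lost in the B libraries alone (0.97) and the CR-night-12h call in the A libraries alone (0.84).

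Cyp2c69 had 2.17 ± 2.19 CPM in old and 81.4 ± 64.4 CPM in young CR-spread livers (log2 fold change -5.21 ± 0.58, edgeR adjusted p = 4.13e-14), and both replicates gave the call there and in CR-night-2h (-2.29). In CR-day-12h (-1.58), CR-day-2h (-1.17) and CR-night-12h (-2.05) at least 1 replicate alone did not, with values of -0.81 and -3.74, -1.04 and -1.38, and -1.59 and -2.51 in A and B. Cyp2c40 fell in CR-spread by 2.99 ± 0.38 on the log2 scale, with 7.66 CPM in old and 60.9 CPM in young livers. Cyp2b10 fell with age in CR-spread (-1.88, edgeR adjusted p = 7.49e-05), CR-day-12h (-1.37, edgeR adjusted p = 0.00383) and CR-day-2h (-1.46, edgeR adjusted p = 0.000998), with means of 4.15 and 15.2, 6.47 and 16.5, and 7.34 and 19.6 CPM in old and young livers. That call was lost in the A libraries alone in CR-spread (-1.30) and CR-day-12h (-0.65) and in the B libraries alone in CR-day-2h (-0.53).

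Cyp3a11 had 2215 and 1114 CPM in old and young CR-spread livers (log2 fold change 0.99, edgeR adjusted p = 1.23e-05), 2476 and 1560 CPM in CR-day-12h, 2337 and 1440 CPM in CR-day-2h, and 1178 and 664 CPM in CR-night-12h. In 3 of these 4 schedules at least 1 replicate alone missed the call, and in CR-night-12h both made it. In CR-night-2h it had 1695 and 1338 CPM (0.34, edgeR adjusted p = 0.168). Of the members that fell with age in AL, Cyp2c54 rose with age in CR-spread (0.98), CR-day-2h (1.00) and CR-night-2h (0.68), and Cyp2d9 in CR-spread (0.88) and CR-night-2h (0.60). The Cyp2c54 call was lost in the B libraries alone in CR-spread (0.87) and CR-day-2h (0.77) and in either replicate alone in CR-night-2h (0.64 in A and 0.73 in B). The Cyp2d9 call was lost in the B libraries alone in CR-spread (0.47) and in the A libraries alone in CR-night-2h (0.43). In CR-day-2h no call was made in the B libraries alone, and 9 of 11 in the A libraries alone.

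The difference between the age changes was tested as an interaction of age and feeding for each schedule. It was called for 19 members in CR-spread (12.1% of all genes), 17 in CR-day-12h (8.36%), 18 in CR-day-2h (12.6%), 17 in CR-night-12h (11.8%) and 22 in CR-night-2h (17.1%), and these 5 tests share both AL groups. In all 5, Cyp2a4, Cyp2a22, Cyp2c38, Cyp2c39, Cyp2c69, Cyp3a11 and Cyp3a59 had a more negative change with age under CR than under AL. In all 5, Cyp1a2, Cyp2c44, Cyp2c50, Cyp2c54, Cyp2c67, Cyp2c70, Cyp2d9 and Cyp2u1 had a more positive one, and 13 members were called in none. Cyp2a22 had the largest values, -7.30 in CR-spread to -5.07 in CR-night-12h on the log2 scale, and was called in each replicate alone in all 5. Cyp2c54 ranged from 1.74 (CR-day-12h) to 2.70 (CR-day-2h). The Cyp2c69 interaction was between -0.97 and 0.06 in the A libraries alone outside CR-spread. Cyp3a11 was called in each replicate alone only in CR-night-2h, and Cyp2c50 was lost in the B libraries alone in all 5 (0.25 to 0.69). Interaction calls made in each replicate alone were 13 of 19 in CR-spread, 7 of 17 in CR-day-12h and 12 of 18 in CR-day-2h. They were 6 of 17 in CR-night-12h and 15 of 22 in CR-night-2h.

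The level of few members differed with the time of the 2 h meal, and that of more members with the time of 12 h feeding at 6 months. Between CR-night-2h and CR-day-2h, 2 members were called at 6 months (0.638% of all genes) and 0 at 19 months (0.393%). The count at 19 months depended on the libraries used. In the A libraries alone 6 members were called, with 519 of all genes. Without the libraries of low similarity 3 members were called, with 198 of all genes, against 0 members and 48 genes in the main fit. At each age 11 members had an unadjusted edgeR p under 0.05, and DESeq2 called 2 and 0. The share of all tested genes with such an unadjusted p is not given here, so the 11 cannot be set against it. At 6 months Cyp2a5 was higher in CR-night-2h (690 CPM, against 291 CPM in CR-day-2h, log2 fold change 1.25, edgeR adjusted p = 0.00861) and Cyp2b10 lower (6.12 CPM, against 19.6 CPM, -1.65, edgeR adjusted p = 0.00632), and neither was called in either replicate alone.

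When food was spread over 12 h, 8 members were called at 6 months (2.02% of all genes) and 4 at 19 months (1.34%), with DESeq2 calling as many. In young CR-night-12h livers Cyp2a22 ranged from 0.633 to 66.4 CPM (median 6.74), against 6.75 to 225 CPM in CR-day-12h (median 50.6), with a log2 fold change of -2.26 (edgeR adjusted p = 4.71e-07). Cyp3a11 ranged from 405 to 1237 CPM in CR-night-12h (median 621), against 511 to 3358 CPM in CR-day-12h (median 1528), a log2 fold change of -1.23 (edgeR adjusted p = 4.91e-07). The ranges overlapped for both genes. Cyp2b10 had 3.92 and 16.5 CPM (-2.16, edgeR adjusted p = 9.49e-05), and Cyp3a59 (-1.33), Cyp2c38 (-0.66), Cyp3a25 (-0.65) and Cyp2c39 (-0.60) were lower too, while Cyp2u1 was higher (0.91).

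At 19 months the 4 members called were all lower in CR-night-12h: Cyp3a11 with 1178 CPM, against 2476 CPM in CR-day-12h (-1.07, edgeR adjusted p = 4.66e-05), Cyp2a22 with 12.7 and 41.6 CPM (-1.71, edgeR adjusted p = 0.000496), Cyp2b10 with 2.09 and 6.47 CPM (-1.68, edgeR adjusted p = 0.0127), and Cyp3a59 (-1.08). At 6 months Cyp2a22, Cyp3a11 and Cyp3a59 were called in each replicate alone, and Cyp2b10 was lost in the B libraries alone (-1.88, edgeR adjusted p = 0.0823). At 19 months only Cyp3a11 was called in each, with the Cyp2a22 call lost in the B libraries alone (-1.41) and the Cyp2b10 call in both (-1.87 and -1.48).

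Daily rhythms were tested with cosine and sine terms of a 24 h period, and a member was called cycling at an edgeR adjusted p under 0.05 and a ratio of peak to trough above 1.23. The number of cycling members was 6 in old AL (24.3% of all genes), 2 in old CR-spread (14.5%), 8 in old CR-day-12h (34%), 8 in old CR-day-2h (31.3%), 12 in old CR-night-12h (39.8%) and 12 in old CR-night-2h (37.9%). In young livers it was 6 in AL (27.3%), 5 in CR-spread (18.4%), 9 in CR-day-12h (37.7%), 3 in CR-day-2h (33.6%), 10 in CR-night-12h (30.3%) and 8 in CR-night-2h (36%). Of the members, 14 were called cycling in no group, and the share of all genes without a call in any group is not given here.

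Cyp2a5 cycled in 11 of 12 groups, Cyp2b10, Cyp2g1 and Cyp3a13 in 9 each, and Cyp2e1 and Cyp2j9 in 5 each. Cyp2a5 had means of 180, 169, 542, 1206, 739 and 297 CPM at hours 0, 4, 8, 12, 16 and 20 in old AL livers, against 85.3, 125, 468, 721, 473 and 200 CPM in young AL livers. Its peak was at hour 13 in old AL (7.50-fold) and at hour 12.5 in young AL (8.73-fold). Cyp2g1, the olfactory P450, peaked at hour 10.2 in old AL (8.44-fold) and at hour 9.17 in young AL (13.2-fold). Cyp3a13 peaked at hour 16.3 in old AL (1.48-fold) and at hour 15.8 in young AL (2.04-fold). Cyp2e1 was called in young AL (2.04-fold, peak at hour 11.9) and not in old AL (1.63-fold, edgeR adjusted p = 0.0842), but a difference between the 2 ages was not called for any member. That test called 0 of 37 members and 0.00818% of all genes, only Cyp2r1, the vitamin D 25-hydroxylase, had an unadjusted edgeR p under 0.05 (0.0289), and DESeq2 was not run for rhythms.

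**Figure D4:**
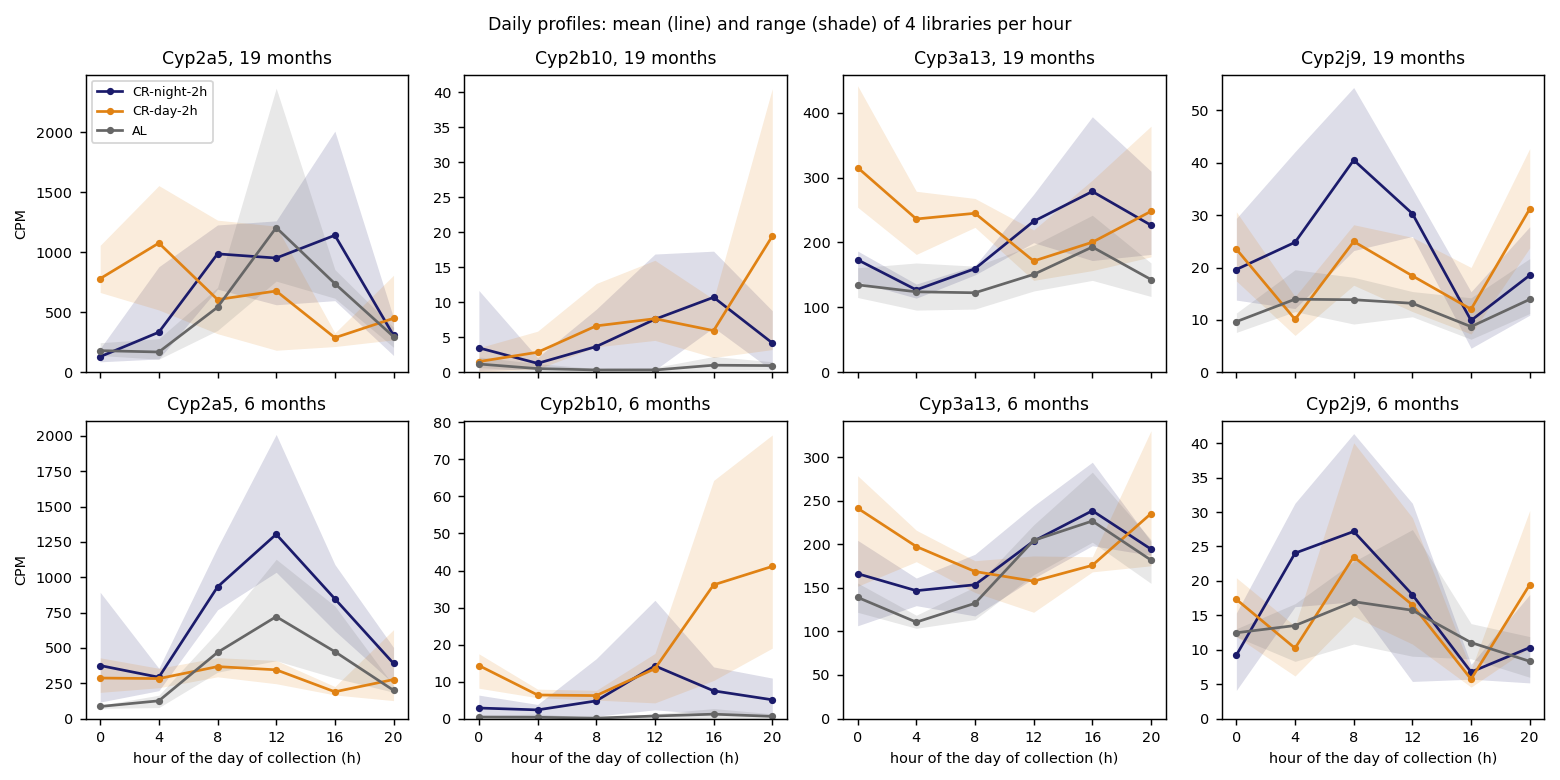
Mean level of Cyp2a5, Cyp2b10, Cyp3a13 and Cyp2j9 in CPM by hour of day at 19 months (upper row) and 6 months (lower row), in CR-night-2h (dark blue), CR-day-2h (orange) and AL (grey), with shading from the lowest to the highest of 4 livers at each hour. At 19 months Cyp2a5 peaked at hour 12.1 in CR-night-2h and at hour 4.54 in CR-day-2h.

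A joint test of both rhythm terms called a different rhythm between CR-night-2h and CR-day-2h for 10 of 37 members at 19 months. At 6 months it called 11 of 37. All tested genes were called more often, at 46.7% at 19 months and 37.7% at 6 months. The counts depended on the libraries used: at 19 months they were 12 in A alone and 5 in B alone, and at 6 months 13 in A alone, 2 in B alone and 6 with both groups fitted alone. Cyp2a5 had 130, 334, 987, 952, 1142 and 307 CPM at hours 0 to 20 in old CR-night-2h, against 781, 1077, 606, 677, 288 and 450 CPM in old CR-day-2h, with fitted peaks at hours 12.1 and 4.54 (edgeR adjusted p = 1.73e-08). In young livers it had 375, 292, 932, 1304, 847 and 390 CPM in CR-night-2h, against 287, 283, 368, 345, 189 and 276 CPM in CR-day-2h (edgeR adjusted p = 0.00835), where no rhythm was called (1.48-fold, edgeR adjusted p = 0.514). Young CR-day-2h was the group in which no Cyp2a5 rhythm was called, which does not show that a rhythm was absent.

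Cyp3a13 peaked at hour 16.2 in old CR-night-2h and at hour 0.794 in old CR-day-2h (edgeR adjusted p = 2.03e-08), and at hours 16.2 and 22.9 in the young groups (edgeR adjusted p = 0.000648). The rhythm terms of Cyp2e1 differed between CR-night-2h and CR-day-2h at 19 months (edgeR adjusted p = 0.000896) and 6 months (edgeR adjusted p = 0.0309). Of these groups only old CR-night-2h had a called Cyp2e1 rhythm (1.97-fold, hour 11.3, edgeR adjusted p = 0.00386). It was not called in old CR-day-2h (1.49-fold, edgeR adjusted p = 0.176). In young livers it was called neither in CR-night-2h (1.66-fold, edgeR adjusted p = 0.0634) nor in CR-day-2h (1.32-fold, edgeR adjusted p = 0.428). The joint test also responds to amplitude, so a shift of the Cyp2e1 peak was not established. Cyp2j9, an arachidonic acid epoxygenase, was called cycling in CR-night-2h at 19 months (2.63-fold, hour 7.15) and 6 months (3.74-fold, hour 7). It was called in neither CR-day-2h group, and its rhythm differed at 19 (edgeR adjusted p = 0.00228) and 6 months (edgeR adjusted p = 0.0292). Cyp2c55, Cyp2c70, Cyp2r1 and Cyp3a25 also differed at both ages. Cyp2c29 and Cyp2g1 were called only at 19 months and Cyp2j5, Cyp2j6 and Cyp2b10 only at 6 months, without a test of that contrast.

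Cyp2b10 had means of 2.84, 2.34, 4.77, 14.2, 7.49 and 5.07 CPM at hours 0 to 20 in young CR-night-2h, against 14.3, 6.37, 6.20, 13.5, 36.1 and 41.1 CPM in young CR-day-2h, with fitted peaks at hours 13.5 and 18.2 (edgeR adjusted p = 0.0111). In old livers the peaks were at hours 15.1 and 16.4 (edgeR adjusted p = 0.735). Of the D-box factors, Dbp peaked at hour 8.88 in old CR-night-2h (225-fold) and at hour 21.1 in old CR-day-2h (7.74-fold, edgeR adjusted p = 5.83e-27), and Por peaked at hours 11.9 and 22.7 (edgeR adjusted p = 1.45e-21). Alas1, the first enzyme of heme synthesis, peaked at hours 12.4 and 4.05 (edgeR adjusted p = 2.7e-17). Cyp2a4, whose promoter also holds a D box, was called cycling in young CR-night-12h and old CR-night-2h only. Its fitted ratio was 7.18-fold in old AL (peak at hour 15.1, edgeR adjusted p = 0.0957) and 6.45-fold in young AL (hour 12.4, edgeR adjusted p = 0.183). With its wide spread between replicates, the missing calls do not show that a rhythm was absent.

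Cyp2d11, a member near the count limit, was either clearly present or nearly absent. It was above 2 CPM in 56 of 288 livers (2.17 to 15.5 CPM), between 1 and 2 CPM in 3 and below 1 CPM in 229. Each group of 24 held between 2 and 8 livers above 2 CPM, with 4 in old AL and 8 in young AL. Its call with age in CR-spread (-2.26, edgeR adjusted p = 0.00335) therefore rests on a small number of livers and was lost in the A libraries alone (-1.20, edgeR adjusted p = 0.396).

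**Figure D5:**
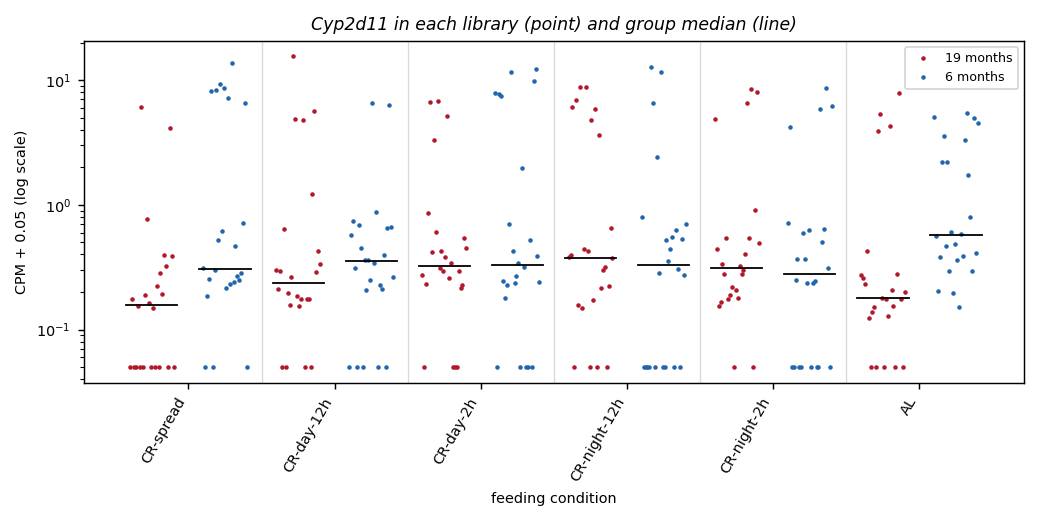
Cyp2d11 in each of the 288 livers, in CPM on a log axis, by feeding condition, with 19 months (red) to the left of 6 months (blue) and a line at each median. The points separate into 56 livers above 2 CPM and 229 below 1 CPM, and both kinds occur in all 12 groups.

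The spread between replicates differed widely among members. Between replicates A and B of the same hour the SD of log2 CPM, as a median over groups, was 0.21 for Cyp2j6, the lowest, and 2.07 for Cyp2c69, 1.95 for Cyp2d11 and 1.88 for Cyp2a4, the highest. Cyp2a12, Cyp2d26, Cyp2e1, Cyp2j5, Cyp2j6 and Cyp2r1 were called in no comparison of level between ages or between CR and AL. Of the 3 tested Cyp2j genes none was called with age in AL, and of 6 tested Cyp2d genes 3 fell. Of the 3 Cyp1 genes, Cyp1a2 fell and the non-member Cyp1b1 rose. Outside the family, 7 of 12 periportal genes fell and 1 rose with age in AL, 2 of 12 pericentral genes fell and 1 rose, and of 4 D-box factors Tef fell.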

How the data were processed

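PolyA RNA of 288 livers was sequenced. The authors deposited 12 tables of raw counts per gene, 1 for each feeding condition and age, and a table of RPKM values per gene (10248 genes). The submitters' processing notes name FastQC, cutadapt, STAR and featureCounts. Versions, the genome build and the treatment of reads that fit several genes were not given in the sources used. The RPKM values were deposited without a statement of their denominators and were used for the order of levels within a group only.

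The 12 count tables were joined (0 value columns were not mapped). Genes with enough counts were kept with edgeR's filterByExpr (12228 of 21869, all 37 members included), scaled by TMM and fitted with edgeR 4.0.16 in R 4.3.3 using quasi-likelihood F tests over all 288 libraries, as a model of 12 group means alone. P-values were adjusted over all tested genes by the Benjamini-Hochberg method, and a call needed an adjusted p under 0.05 and a fold of at least 1.5. Rhythms were fitted with cosine and sine terms of 24 h for each group and a daily fold over 1.23. Fold changes are old over young, CR over AL and night over day. Totals of 2796688 to 18706281 counts limit the precision of members with few counts. The methods call A and B biological replicates.

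Alternatives were DESeq2 1.42.0, RLE size factors, no filter, either replicate left out, hours 0 to 20 or 24 to 44 alone, a replicate block, 2 groups fitted alone, limma 3.58.1 on log2(RPKM + 0.1), and, added after the data were seen, leaving out the 3 libraries of low similarity. Hour and letter are shared by the groups. Same-labelled livers deviated together (correlation over 0.1) in 24 of 24 pairs only for CR-night-12h over AL at 6 months (0.16 to 0.52). The block gave 16 calls there, against 14 without it. Livers of the same hour and the other letter correlated about as much (median 0.28, against 0.29 for the same label), and 7 of 24 correlated best with their own label. With age in AL the median was 0.3, with 22 of 24 pairs over 0.1. These values go with the shared hour and do not show a pairing of livers, and nothing in the labels beyond hour and letter ties the animals together.

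The script was tested on simulated data: for age in AL 99 of 100 genes changed 2-fold and 97 of 100 changed 4-fold were recovered among 11883 genes, with 0 false calls. For cycling in young AL 73 of 100 genes with a 2-fold rhythm and 97 of 100 with a 4-fold rhythm were recovered among 11890 genes, with 10 false calls in all. The simulated counts were drawn independently around young AL means. They held no difference between A and B and no rhythm except the added one. These rates test the script and do not give the error rate of the calls in the livers.

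The members and gene lists were chosen with earlier results of these data known. Any member could be named. Full values went to at most 8 called members per comparison, those with the largest fold change among members with the same direction in A, in B and in hours 0 to 20 and 24 to 44 (by mean log2(CPM + 0.1)), to the strongest rhythms, and throughout to Cyp1a2, Cyp2a4, Cyp2a5, Cyp2b10, Cyp2c29, Cyp2d9, Cyp2e1, Cyp2f2 and Cyp3a11. Other values, such as those of Cyp2c69 in AL, were chosen after they were seen. Sequences and positions come from RefSeq and GENCODE annotations of GRCm38.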

Additional observations from a re-analysis of the deposited data

Results flagged for a closer look

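These results stood out because the change with age under CR differed from that under AL, by the interaction term of edgeR's quasi-likelihood test. It was called for 19 members in CR-spread, 17 in CR-day-12h, 18 in CR-day-2h, 17 in CR-night-12h and 22 in CR-night-2h. A negative value means that the change with age was more negative under CR than under AL. All 5 tests use the same AL libraries.

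Values are given on the log2 scale for the 8 members per schedule with the largest called difference among those whose mean log2(CPM + 0.1) gave the same direction in both replicates and on both days. In CR-spread they were -7.30 for Cyp2a22, -7.25 for Cyp2c69, -5.16 for Cyp2a4, -3.69 for Cyp2c39, -3.29 for Cyp2c40, 2.68 for Cyp2c54, 2.51 for Cyp2d9 and -2.21 for Cyp2b10. In CR-day-12h they were -5.62 for Cyp2a22, -4.05 for Cyp2a4, -3.62 for Cyp2c69, -2.76 for Cyp2c39, -1.85 for Cyp2c38, 1.74 for Cyp2c54, 1.58 for Cyp2d9 and -1.44 for Cyp3a59. In CR-day-2h they were -5.73 for Cyp2a22, -4.33 for Cyp2a4, -3.21 for Cyp2c69, 2.70 for Cyp2c54, -2.37 for Cyp2c39, 2.04 for Cyp1a2, -1.80 for Cyp2b10 and 1.71 for Cyp2c44.

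In CR-night-12h they were -5.07 for Cyp2a22, -4.41 for Cyp2a4, -4.09 for Cyp2c69, -2.41 for Cyp2c39, 2.06 for Cyp2c54, -1.54 for Cyp2c38, 1.34 for Cyp2c44 and -1.20 for Cyp3a59. In CR-night-2h they were -6.15 for Cyp2a22, -5.11 for Cyp2a4, -4.33 for Cyp2c69, -2.94 for Cyp2c39, 2.37 for Cyp2c54, 2.23 for Cyp2d9, 2.06 for Cyp2u1 and -1.67 for Cyp2c38. Of these, the fitted Cyp2c69 difference in CR-day-12h was 0.060 in the A libraries alone and -7.96 in the B libraries alone. In the A libraries alone the call was also lost for Cyp2c69 in both night schedules and CR-day-2h, Cyp2c40 and Cyp2b10 in CR-spread, Cyp2a4 (-2.95, edgeR adjusted p = 0.0758), Cyp2d9 and Cyp3a59 in CR-day-12h, and Cyp2c38 and Cyp3a59 in CR-night-12h. In the B libraries alone it was lost for Cyp2c54 in CR-day-12h (1.18). The Cyp2b10 difference in CR-day-2h was called in neither replicate alone (-2.70 in A and -1.11 in B), nor with no filter, nor without the libraries of low similarity (-1.61).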

How the results depend on the processing

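The 335 called member values were recomputed 2603 times under the alternatives: 2358 kept the call, 237 lost it and 8 changed sign. Losses came mainly from leaving out a replicate (97 without A, 61 without B) or 1 of the 2 days of sampling (17 for hours 0 to 20 and 27 for hours 24 to 44), and in small number from RLE size factors (2), DESeq2 (6), no filter (11), the block (4, namely Cyp2c55 with age in CR-night-2h and in old CR-night-2h over AL, Cyp2j9 in old CR-night-12h over AL at 0.58, and the Cyp2e1 interaction in CR-night-2h), the libraries of low similarity (6), 2 groups fitted alone (5) and cosine terms (1). The cause was not tested. The 8 values that changed sign did so in 1 replicate alone, given here as A and B alone: Cyp2c69 with age in AL (-0.87 and 4.23), Cyp2c55 with age in CR-night-2h (-0.28 and 1.45), and in old CR-day-12h over AL Cyp2c40 (3.60 and -0.58) and Cyp2c69 (4.65 and -1.28). Cyp2c55 in old CR-day-2h over AL had 1.60 and -0.064. The interactions were Cyp2c40 in CR-day-12h (1.02 and -3.90) and CR-night-2h (0.62 and -2.94) and Cyp2c69 in CR-day-12h (0.060 and -7.96).

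Counts of called members with either replicate left out ranged as follows. With age they were 18 to 18 in AL (19 with both), 12 to 12 in CR-spread (13), 2 to 7 in CR-day-12h (7), 0 to 13 in CR-day-2h (11), 5 to 5 in CR-night-12h (5) and 4 to 6 in CR-night-2h (10). For CR over AL at 6 months they were 19 to 20 in CR-spread (19), 17 to 17 in CR-day-12h (18), 17 to 19 in CR-day-2h (19), 10 to 13 in CR-night-12h (14) and 17 to 18 in CR-night-2h (19). At 19 months they were 8 to 15 in CR-spread (13), 3 to 15 in CR-day-12h (16), 8 to 19 in CR-day-2h (16), 8 to 18 in CR-night-12h (16) and 8 to 17 in CR-night-2h (13). The interactions gave 16 to 17 for CR-spread, 11 to 17 for CR-day-12h, 15 to 16 for CR-day-2h, 12 to 12 for CR-night-12h and 18 to 19 for CR-night-2h. Night over day gave 0 to 0 (2) and 0 to 6 (0) for the 2 h meals at 6 and 19 months, and 3 to 7 (8) and 1 to 4 (4) for 12 h feeding. Cycling members at 6 months were 3 to 4 in AL, 1 to 4 in CR-spread, 2 to 4 in CR-day-12h, 1 to 2 in CR-day-2h, 4 to 4 in CR-night-12h and 2 to 14 in CR-night-2h, and at 19 months 1 to 5 in AL, 0 to 5 in CR-spread, 6 to 7 in CR-day-12h, 1 to 7 in CR-day-2h, 4 to 10 in CR-night-12h and 5 to 7 in CR-night-2h. Rhythm differences were 2 to 13 at 6 months, 5 to 12 at 19 months and 0 to 0 between ages in AL.

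These other counts moved past 1.5 times. With age, hours 0 to 20 alone gave 3 calls in CR-day-12h and 3 in CR-night-2h, and hours 24 to 44 alone 8 in CR-spread, 1 in CR-day-12h, 3 in CR-day-2h and 5 in CR-night-2h. Adjusted p without a fold limit gave 22 in CR-spread, 20 in CR-day-2h, 14 in CR-night-12h and 17 in CR-night-2h, and 21 in AL, which is within 1.5 times. Of all 12228 tested genes it called 4043, 5755, 5247 and 3993 in these 4 CR schedules, and the count in AL is not given. For old CR-night-2h over CR-day-2h the replicate block gave 1 and leaving out the libraries of low similarity 3, against 0. The block moved no other count by 1.5 times. Fitting each group alone gave 10 cycling members in young AL, 9 in CR-spread, 5 in CR-day-2h and 4 in CR-night-2h, and in old livers 1 in CR-spread, 4 in CR-day-12h, 4 in CR-day-2h and 6 in CR-night-2h. A daily fold of at least 2 gave 5 in young CR-day-12h, 1 in CR-day-2h and 5 in CR-night-12h, and in old livers 2 in AL, 1 in CR-spread, 3 in CR-day-12h, 5 in CR-day-2h, 6 in CR-night-12h and 7 in CR-night-2h. Limma on log2(RPKM + 0.1) gave 4 and 2 in old CR-day-12h and CR-day-2h, and fitting CR-night-2h and CR-day-2h alone gave 6 rhythm differences at 6 months. RLE size factors, DESeq2 and no filter left the counts within 1.5 times.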
